A study of Homo sapiens with 4 samples.

Results

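The genes examined here are 10 ligands that tumour cells carry on their surface and that T cells, macrophages or natural killer (NK) cells read. They are the checkpoint ligands CD274 (PD-L1), PDCD1LG2 (PD-L2), CD276 (B7-H3) and CD47, the NKG2D ligands MICA, MICB, ULBP2 and ULBP3, and the DNAM-1 ligands PVR (CD155) and PVRL2 (nectin-2, CD112). They were chosen by symbol, as the rows of the deposited count files whose Ensembl identifier maps to these names, and they make up 10 of the 63677 genes listed. All 10 were found, 9 had counts and passed the filter on low counts, and PDCD1LG2 had no count in any library.

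The lines compared were FLO-1, an established human cell line of esophageal adenocarcinoma, and FLO-1LM, a subline of it raised from a liver macro-metastasis after repeated subcutaneous passage through NSG mice. NSG mice are NOD-SCID animals in which the IL-2 receptor gamma chain is knocked out, and they lack working T, B and NK cells. Per the paper, cells from the metastasis were returned to culture and passaged there before experiments began. Each line gave 2 RNAseq libraries from cells taken at 80% confluency, 24 hr after fresh medium, and FLO-1LM is a single derived line, so that it stands for 1 passage history. Separate cultures are not stated in the labels for the 2 libraries of a line, and p-values then measure only the spread between these libraries, which may be technical. Total counts per library ran from 19060310 to 25920336.

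Checkpoint ligands hold immune cells back. PD-L1 and PD-L2 bind PD-1 on T cells, and CD47 binds SIRP-alpha on macrophages and blocks engulfment. NKG2D ligands do the opposite: they are relatives of MHC class I molecules that stressed, infected or transformed cells display, and NK cells that bind them through NKG2D are triggered to kill. PVR and PVRL2 are adhesion molecules of the nectin family, read by the activating receptor DNAM-1 and by the inhibitory receptors TIGIT and PVRIG. For these ligands, the comparison asks whether transcript levels in the subline differ from those in the line of origin. Passage in mice without working T and NK cells, growth in the liver and the return to culture cannot be told apart here.

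Of the 9 ligands tested, 0 passed an adjusted p of 0.05 between the lines, in the edgeR quasi-likelihood fit with p-values adjusted by Benjamini-Hochberg over 17143 genes, against 2.23% of all genes tested. DESeq2 and limma voom also called 0 of the 9. PVR, with 1.30 times the parental level in FLO-1LM, and CD47, with 0.880 times, had an unadjusted p below 0.05, which is 2 of 9 ligands beside 12.4% of all genes. The CPM of the lines did not overlap for 4 of the 9 (PVR and ULBP2 higher in both FLO-1LM libraries, CD47 and CD274 lower in both), and the same held for 42.6% of all genes. The median log2 fold change was 0.0092 over the 9 ligands and 0.0016 over all genes tested. CPM here are counts scaled to a common library size, with TMM factors, and every log2 fold change is FLO-1LM against FLO-1 parental.

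**Figure D1:**
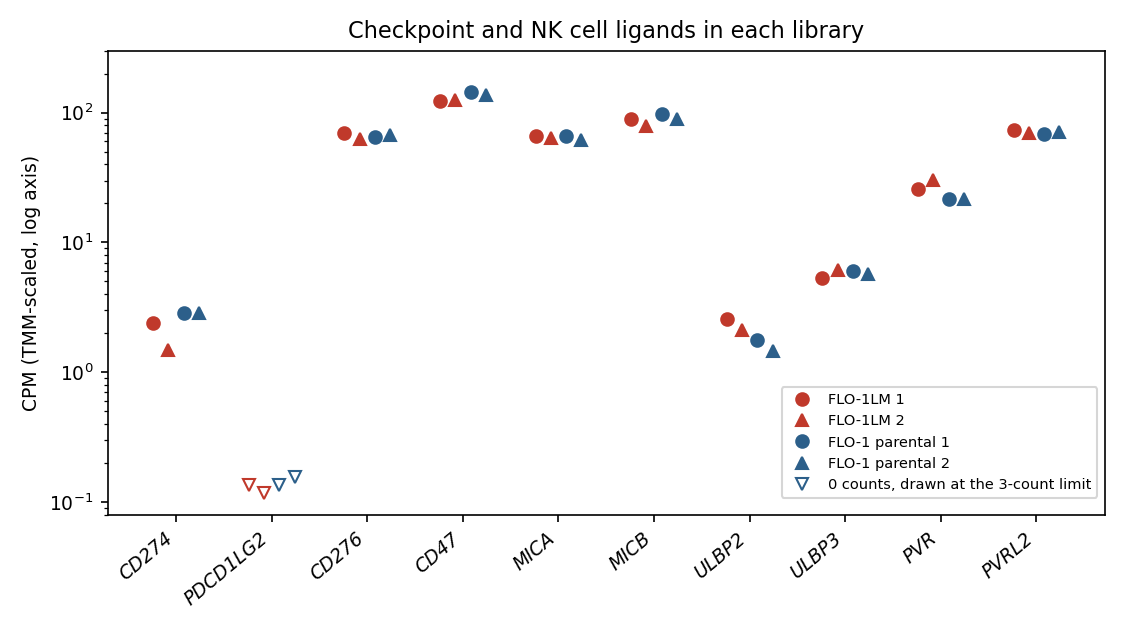
CPM of each ligand (log axis) in the 2 FLO-1LM libraries (red) and the 2 FLO-1 parental libraries (blue), 1 point per library. Levels run from no count for PDCD1LG2, drawn as open triangles at the limit that 3 counts set, to between 123.0 and 145.1 CPM for CD47, and the points of the lines are apart only for CD274, CD47, ULBP2 and PVR.

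The promoter sequences of 5 ligands are shown: PVR and CD274, whose fold changes lie toward opposite ends of the range, ULBP2, which has the most positive estimate, and the pair MICA and MICB, whose windows are the most alike. They are the RefSeq promoters of build GRCh38.p14, 300 bases mostly upstream of the start and running a short way into the transcript, 5′ to 3′ on the strand of the gene. Capitals mark letters inside a match, on either strand, to one of the motifs GGGCGG (GC box), CANNTG (E box), TGANTCA (AP-1), TGACGTCA (CRE), TTCNNNGAA (GAS), GAAANNGAA (IRF), GAANNTTC (heat shock element), TATAAA and CCAAT. CD274 is read from chr9:5450292-5450591 (+ strand), MICA from chr6:31403345-31403644 (+), MICB from chr6:31497895-31498194 (+), ULBP2 from chr6:149941764-149942063 (+) and PVR from chr19:44643660-44643959 (+).
CD274: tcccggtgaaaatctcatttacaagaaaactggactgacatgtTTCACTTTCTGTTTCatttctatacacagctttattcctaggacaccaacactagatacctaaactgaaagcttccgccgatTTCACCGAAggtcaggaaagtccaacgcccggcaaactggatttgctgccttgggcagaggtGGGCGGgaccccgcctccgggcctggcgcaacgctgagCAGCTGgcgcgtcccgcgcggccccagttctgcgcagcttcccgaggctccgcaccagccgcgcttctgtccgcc
MICA: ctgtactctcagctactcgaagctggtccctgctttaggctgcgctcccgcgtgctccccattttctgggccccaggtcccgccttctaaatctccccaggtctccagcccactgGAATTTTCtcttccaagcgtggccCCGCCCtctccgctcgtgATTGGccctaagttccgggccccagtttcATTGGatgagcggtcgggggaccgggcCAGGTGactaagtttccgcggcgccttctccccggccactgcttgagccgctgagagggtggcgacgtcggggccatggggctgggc
MICB: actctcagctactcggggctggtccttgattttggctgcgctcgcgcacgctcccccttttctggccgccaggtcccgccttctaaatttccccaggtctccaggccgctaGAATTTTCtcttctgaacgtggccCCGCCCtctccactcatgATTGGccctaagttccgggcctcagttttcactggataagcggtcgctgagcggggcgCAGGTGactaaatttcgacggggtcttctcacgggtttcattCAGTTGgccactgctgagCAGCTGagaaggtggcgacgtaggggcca
ULBP2: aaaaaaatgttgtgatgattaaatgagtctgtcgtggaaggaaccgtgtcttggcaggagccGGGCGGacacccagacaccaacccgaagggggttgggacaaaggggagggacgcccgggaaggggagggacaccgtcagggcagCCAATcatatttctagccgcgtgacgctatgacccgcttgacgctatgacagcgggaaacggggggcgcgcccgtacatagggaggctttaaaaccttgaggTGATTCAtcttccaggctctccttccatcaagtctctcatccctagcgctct
PVR: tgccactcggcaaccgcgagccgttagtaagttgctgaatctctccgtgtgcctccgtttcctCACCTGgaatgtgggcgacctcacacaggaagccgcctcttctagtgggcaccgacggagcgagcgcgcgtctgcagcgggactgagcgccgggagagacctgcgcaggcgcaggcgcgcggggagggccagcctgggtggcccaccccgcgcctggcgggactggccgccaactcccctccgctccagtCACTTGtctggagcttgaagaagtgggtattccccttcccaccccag

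The CD274 window held a pair of overlapping IRF matches, from bases 44 and 50, and a GAS match from base 126. An IRF match was present in 8.11% and a GAS match in 7.66% of the 35116 promoters in the table, and none of the other 8 matched ligands had either. MICA and MICB each held 1 heat shock element, from bases 116 and 112, against 6.77% of all promoters. Their windows shared 247 of 316 aligned columns (78.2%), while the other pairs of ligand promoters shared 46.3% to 56.5%. ULBP2 had an AP-1 match from base 249, and the ULBP3 window had one from base 245, against 7.71% of all promoters. PVRL2 alone had a CRE, from base 252 (1.85% of all promoters). PVR held only 2 E boxes, a motif found in 68.7% of all promoters, and no GC box, which the other 8 windows all had and 45.0% of all promoters hold. The 9 windows held 19 (ULBP2) to 45 (CD47) CpG, against a median of 14 over all promoters. A match describes letters in the window and does not show that a factor binds there.

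PD-L1 transcripts were scarce in both lines. CD274 (ENSG00000120217, chr9:5450503-5470566 in GRCh37, + strand, a protein-coding gene) had 53 and 38 counts in FLO-1LM and 63 and 55 in parental cells. Scaled to depth, these were 2.38 and 1.48 CPM in FLO-1LM and 2.86 and 2.87 CPM in parental cells. Both FLO-1LM libraries lay below both parental libraries, but FLO-1LM replicate 2 was farther below replicate 1 than replicate 1 was below the parental libraries. The log2 fold change was −0.58 (95% interval −1.36 to 0.20), and the adjusted p was 0.594 in the edgeR fit (Benjamini-Hochberg). The estimate was −0.95 without FLO-1LM replicate 1 and −0.27 without replicate 2, and neither passed. At counts this low, neither a fall to 0.390 times the parental level nor a rise to 1.15 times lies outside the interval.

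PDCD1LG2 (ENSG00000197646, chr9:5510531-5571282, + strand), the gene of PD-L2, lies downstream of CD274 and encodes the second ligand of PD-1. It had 0 counts in each of the 4 libraries, which allows up to 3 counts, or 0.117 to 0.156 CPM depending on the library. Like the other limits set by depth, this covers counting error only. CD274 was therefore the source of every PD-1 ligand count in both lines.

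CD276 (ENSG00000103855, chr15:73976307-74006855, + strand) encodes B7-H3, a member of the B7 family that many carcinomas carry. It had 70.2 and 63.1 CPM in FLO-1LM and 65.0 and 67.4 CPM in parental cells. The parental libraries fell between those of FLO-1LM, and the log2 fold change was 0.01 (95% interval −0.18 to 0.20), a fold of 0.882 to 1.15.

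CD47 (ENSG00000196776, chr3:107761938-107810709, − strand) encodes the signal that restrains macrophages. It stood at 123.0 and 125.4 CPM in FLO-1LM and at 145.1 and 137.2 CPM in parental cells. Both FLO-1LM libraries were lower, and the gap between the lines was wider than the gap within either line. The log2 fold change was −0.18 (SE 0.08, 95% interval −0.35 to −0.02), and with edgeR the adjusted p was 0.319 over all genes. The estimate stayed between −0.22 and −0.14 in the 11 alternatives. In bulk RNA, fewer cells with a transcript and less of it per cell cannot be told apart.

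Among the NKG2D ligands, the MIC genes made up most of the transcripts. MICA (ENSG00000204520, chr6:31367561-31383092, + strand) had 66.3 and 63.9 CPM in FLO-1LM and 65.6 and 61.2 CPM in parental cells. MICB (ENSG00000204516, chr6:31462658-31478901, + strand), its neighbour in the MHC class I region, had 89.9 and 79.5 CPM in FLO-1LM and 97.5 and 89.0 CPM in parental cells. The lines overlapped for both genes. The log2 fold change of MICA was 0.04 (95% interval −0.15 to 0.22). For MICB it was −0.14 (−0.33 to 0.05), with an adjusted p of 0.586 in edgeR, and it was −0.23 without FLO-1LM replicate 1, −0.05 without FLO-1LM replicate 2 and −0.07 without parental replicate 1, with no call in any of these. MICA and MICB shared only 45 distinct 50-base stretches, 1.11% of those of MICA and 1.61% of those of MICB, in a later annotation of GRCh37. Both genes are highly variable between people and also have copies on alternate haplotypes; identifiers without a name were not added to the named genes here, so their levels may be too low by an amount that was not measured.

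The ULBP genes lie together on the long arm of chromosome 6 and encode NKG2D ligands that lack the membrane-near domain of MHC class I molecules. ULBP2 (ENSG00000131015, chr6:150263150-150270371, + strand) had 57 and 54 counts in FLO-1LM and 39 and 28 in parental cells, which came to 2.56 and 2.10 CPM against 1.77 and 1.46 CPM. Both FLO-1LM libraries were higher. The log2 fold change of 0.52 had a 95% interval of −0.31 to 1.35, and the adjusted p was 0.673 in edgeR. Of the distinct 50-base stretches of ULBP2, 29.7% also occur in RAET1L and 11.7% in RAET1G, so reads in those stretches cannot be assigned to 1 gene and the treatment of such reads in the counting is not given in the sources used here.

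ULBP3 (ENSG00000131019, chr6:150382189-150390257, − strand) had 5.34 and 6.18 CPM in FLO-1LM and 6.03 and 5.74 CPM in parental cells. Both parental libraries fell between the FLO-1LM libraries, with a log2 fold change of −0.03 (95% interval −0.51 to 0.45). The sum of the 4 NKG2D ligands was 164.1 and 151.6 CPM in FLO-1LM and 170.9 and 157.4 CPM in parental cells, and the lines overlapped.

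The other 4 genes of the NKG2D ligand family (ULBP1, RAET1E, RAET1G and RAET1L) add to what an NK cell could read. ULBP1 had the highest level per kilobase of exon of these 4, and it stood at 45.4 and 57.3 CPM in FLO-1LM and 48.4 and 50.7 CPM in parental cells. Its log2 fold change was 0.05 (95% interval −0.18 to 0.28). RAET1G, which encodes ULBP5, had 1.12 and 1.98 CPM in FLO-1LM against 2.99 and 2.87 CPM in parental cells, lower in both libraries, with a log2 fold change of −0.91 and an adjusted p of 0.342 in edgeR. RAET1E, which encodes ULBP4, had 1.08 and 0.621 CPM against 1.59 and 1.67 CPM. It too was lower in both FLO-1LM libraries and did not pass the test, with a log2 fold change of −0.94 (95% interval −2.09 to 0.20). Once FLO-1LM replicate 2 was left out, the log2 fold change of RAET1G was −1.38. Over all 8 genes the summed level was 212.1 and 211.7 CPM in FLO-1LM and 224.1 and 212.8 CPM in parental cells.

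Per kilobase of exon, MICB took 47.0% and 41.8% of the summed NKG2D ligand level in FLO-1LM and 48.0% and 46.3% in parental cells. MICA took 25.2% and 24.4% in FLO-1LM and 23.5% and 23.1% in parental cells. ULBP2 accounted for 2.80% and 2.31% in FLO-1LM and 1.82% and 1.59% in parental cells. ULBP3 accounted for 2.51% to 2.92% over the 4 libraries. MICB, ULBP1 and MICA thus held most of the total in each library. The shares depend on the gene length used. With the longest transcript as gene length, mean levels over the 4 libraries were 36.8 (MICB) and 28.4 (MICA) CPM per kb. Per kilobase of exon they were 31.8 and 16.7.

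**Figure D2:**
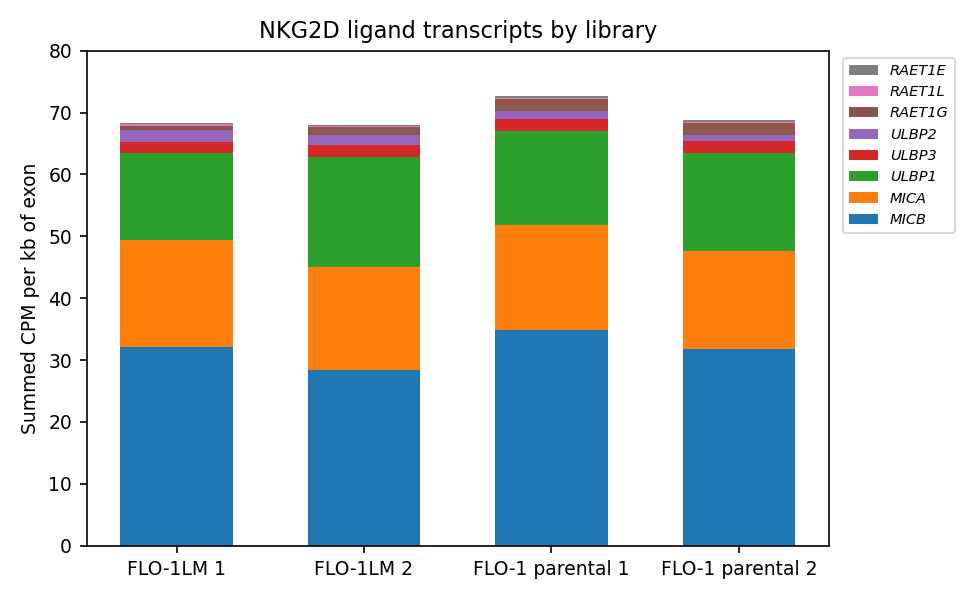
Stacked levels of the 8 NKG2D ligand genes in CPM per kb of exon, 1 bar per library. MICB (lowest block), MICA and ULBP1 fill most of every bar, and the totals of 68.3 and 67.9 in FLO-1LM and 72.6 and 68.7 in parental cells lie close together.

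PVR had the lowest unadjusted p of the 10 ligands. PVR (ENSG00000073008, chr19:45147098-45169430, + strand), which encodes the poliovirus receptor CD155, had 578 and 786 counts in FLO-1LM and 480 and 413 in parental cells. These came to 25.9 and 30.5 CPM in FLO-1LM and 21.8 and 21.5 CPM in parental cells. Both FLO-1LM libraries were higher, and replicate 2 was higher than replicate 1 by about as much as replicate 1 was above the parental pair. The log2 fold change was 0.38 (SE 0.13, 95% interval 0.12 to 0.65), and with edgeR the adjusted p was 0.166. Without FLO-1LM replicate 1 the estimate was 0.49, with the lone library of that line assumed to vary like the parental pair. It was the only one of the 11 alternatives in which PVR, or any of the 9 ligands, passed. That fit also called more of all genes than the main fit did.

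The PVR locus holds transcripts that may share its reads. In a later annotation of GRCh37, a same-strand locus without a row in the deposited tables shares 2029 exon bases with PVR, and 18.3% of the distinct 50-base stretches of PVR belong to it. CEACAM19 shares 121 exon bases with PVR on the same strand and had 52 and 92 counts in FLO-1LM and 44 and 47 in parental cells. Its counts were thus a small fraction of those of PVR in each library.

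PVRL2 (ENSG00000130202, chr19:45349432-45392480, + strand), the other DNAM-1 ligand, had 73.8 and 69.6 CPM in FLO-1LM and 68.6 and 71.5 CPM in parental cells. The lines overlapped, and the log2 fold change was 0.03 (95% interval −0.15 to 0.22). The ratio of PVR to PVRL2 in CPM was 0.351 and 0.438 in FLO-1LM and 0.317 and 0.301 in parental cells. This ratio within a library, which does not depend on how libraries are scaled, was higher in both FLO-1LM libraries, but an exact permutation test of 2 against 2 libraries cannot give a two-sided p below 0.333. Per kilobase of exon, PVR made up 11.2% and 13.6% of the DNAM-1 ligand level in FLO-1LM and 10.2% and 9.76% in parental cells.

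**Figure D3:**
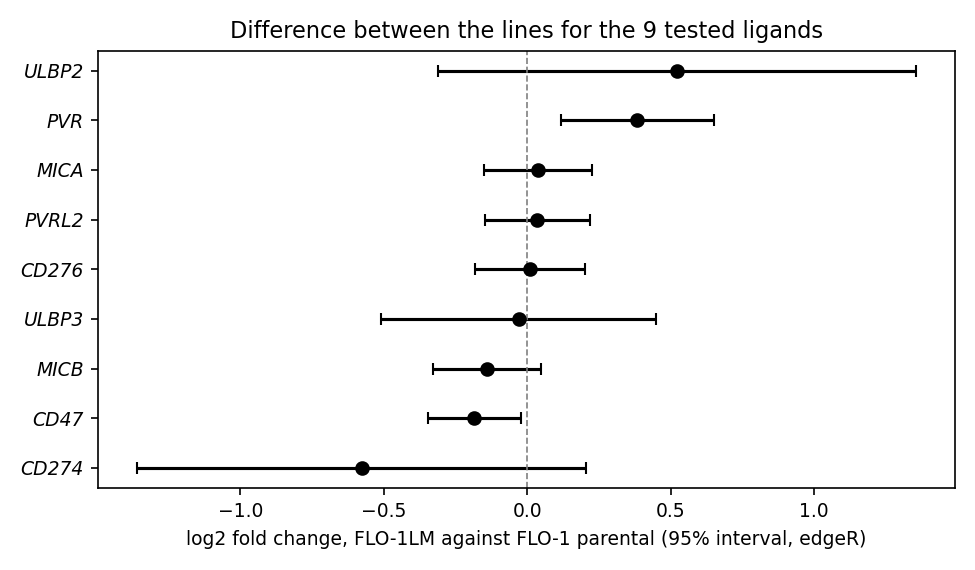
log2 fold change of the 9 tested ligands, FLO-1LM against FLO-1 parental, with 95% intervals from edgeR, ordered by estimate. The intervals of PVR (0.12 to 0.65) and CD47 (−0.35 to −0.02) lie to 1 side of 0, those of MICA, MICB, CD276 and PVRL2 are narrow and include 0, and those of CD274 and ULBP2 span more than 1 log2 unit.

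The intervals were narrow for the abundant ligands and wide for the scarce ones. For CD276, CD47, MICA, MICB and PVRL2, each with at least 1173 counts in every library, the 95% interval of the fold ran from 0.786 at the lowest to 1.17 at the highest. For CD274 it ran from 0.390 to 1.15, and for ULBP2 from 0.805 to 2.56. For the last 2, folds inside these wider intervals were not excluded, whereas a 1.5-fold difference lies outside the interval of each of the 5 abundant ligands.

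To rank different genes, levels were taken per kilobase of exon. In that unit the ligands stood in the order MICB (mean over the 4 libraries 31.8 CPM per kb), PVRL2 (18.9), MICA (16.7), CD47 (16.1), CD276 (12.1), PVR (2.39), ULBP3 (1.87), ULBP2 (1.48), CD274 (0.583) and PDCD1LG2 (0). The ranges of the libraries overlapped for 2 pairs of neighbours in that order, MICA with CD47 and ULBP3 with ULBP2. With the longest transcript as the gene length, 6 of the 10 kept their place: PVRL2 changed places with MICA, and CD47 with CD276. Of the related genes outside the 10, ULBP1 (15.7 CPM per kb) lay beside CD47, and PVRL1 (3.72), another nectin, lay above PVR.

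The wider lists were the other ligands, receptors and regulators of the same pathways, 72 genes of which 71 were matched, 47 tested and 12 had no count in any library. Of the 47 tested, 0 passed an adjusted p of 0.05 with edgeR, nor with DESeq2 or limma voom, against 2.23% of all genes. An unadjusted p below 0.05 was found for 4 of the 47, beside 12.4% of all genes (RAET1G, TNFSF9, CFLAR and SERPINB9). Of these, SERPINB9, which encodes an inhibitor of granzyme B, was named after its values were seen: its log2 fold change was −0.34, with an adjusted p of 0.357. Estimates were positive for 18 and negative for 29 of the 47, beside 8639 positive and 8504 negative over all genes tested. The median was −0.03 beside 0.0016 for all genes.

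Among other B7 and checkpoint ligands, 4 of 12 matched genes were tested. TNFRSF14, the ligand of BTLA, had a log2 fold change of −0.18 (95% interval −0.39 to 0.04), and ICOSLG, the ligand of ICOS, had 0.15 (−0.16 to 0.46). C10orf54, which encodes VISTA, had −0.01. None passed. Of the nectins and nectin-like genes, PVRL3 had the largest estimate, 0.42 (95% interval −0.05 to 0.90), while PVRL1 had −0.06 and CADM1, a ligand of the receptor CRTAM, −0.04.

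Of 11 ligands of other NK receptors, 8 were tested and 0 passed. HLA-E, the ligand of the inhibitory receptor NKG2A, had 494.0 and 469.1 CPM in FLO-1LM and 457.5 and 460.5 CPM in parental cells, a log2 fold change of 0.07 (95% interval −0.08 to 0.21). ICAM1, through which NK cells attach, stood at 356.3 and 347.2 CPM against 333.2 and 328.4 CPM, with a log2 fold change of 0.09. Both were slightly higher in both FLO-1LM libraries and neither passed the test. BAG6, a ligand of NKp30, had a log2 fold change of −0.03.

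TNFSF9, which encodes the ligand of the costimulatory receptor 4-1BB, came nearest to the threshold of all genes in these lists. It had 38.3 and 33.8 CPM in FLO-1LM and 44.9 and 48.9 CPM in parental cells, lower in both libraries, with a log2 fold change of −0.38 and an adjusted p of 0.0759 in edgeR. It passed with library totals only (−0.41, adjusted p 0.0429 in edgeR) and without a filter on low counts (−0.38, 0.0335). Without FLO-1LM replicate 1 its estimate was −0.47. The other costimulatory ligand and receptor named, CD70 and CD40, had 0.03 and 0.12.

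Enzymes that shed ligands from the surface bear on how much of a transcript is displayed. Of the 5 sheddases and shedding factors, PDIA6, an isomerase that assists the release of MICA, had a log2 fold change of −0.10 (95% interval −0.25 to 0.04). The metalloproteases ADAM9 and ADAM10 had 0.04 and 0.02. Surface protein was not measured in these files.

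The 10 regulators of CD274 and CD47 were all tested and had estimates from −0.17 to 0.18. The transcription factor gene STAT3 had a log2 fold change of −0.03 (95% interval −0.17 to 0.11), and the kinase gene JAK1 had −0.01 (−0.16 to 0.13). For the 4 kinases of the DNA damage response, which is known to raise NKG2D ligands, estimates ran from −0.13 to −0.02. All 4 were negative, as were 8504 of the 17143 genes tested. ATM had −0.02, ATR −0.03 and CHEK2 −0.13. None of these passed.

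Another list held death receptor and granzyme protection genes. Of these, CFLAR, an inhibitor of caspase activation by death receptors, had 84.7 and 97.0 CPM in FLO-1LM and 115.5 and 101.9 CPM in parental cells. It was lower in both FLO-1LM libraries, with a log2 fold change of −0.26 and an adjusted p of 0.201 in edgeR. The estimate was −0.36 without FLO-1LM replicate 2. The death receptor gene TNFRSF10B had −0.04 and CASP8 0.001. Of a list of 10 receptors of immune cells, most of them receptors for the ligands above, only SIRPA was tested, at 0.17 (95% interval −0.17 to 0.51), and 4 of 10 had no count. NCR3 and TIGIT stayed at or below 0.272 CPM.

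The genes around the ligands were taken as a feature the choice of names did not use. Within 500 kb of the 10 starts lie 137 protein-coding genes in all, of which 90 were tested and 0 were called by edgeR after Benjamini-Hochberg adjustment. The 4 tested neighbours of CD274 had log2 fold changes of −0.05 to 0.30, so that CD274, at −0.58, lay below all of them. The 4 around CD47 had 0.02 to 0.16, above CD47 at −0.18. The 20 around PVR spanned −0.23 to 0.48 and took in its value of 0.38. Only ZNF233 (0.48), APOC1 (0.44) and CEACAM19 (0.42) lay above PVR. They had at most 3.57 CPM in any library, and the interval of each included 0. The neighbours with more CPM than PVR in every library were BCL3, BCAM, PVRL2, TOMM40, CLPTM1 and RELB. Their estimates ran from −0.19 (BCL3) to 0.13 (RELB), all below that of PVR. No test was made of these differences between neighbours.

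The lines differed in epithelial markers, which give the state of the cells in which the ligands were measured. CDH1 (E-cadherin) had 16.4 and 19.9 CPM in FLO-1LM and 85.9 and 82.6 CPM in parental cells, a log2 fold change of −2.21 with an adjusted p of 1.12e-09 in edgeR. KRT8 (−0.70), KRT18 (−0.66) and KRT19 (−1.31) fell as well, while KRT7, named after its values were seen, had 6.37 and 6.06 CPM in FLO-1LM against 3.08 and 4.90 CPM in parental cells. KRT7 was higher in both FLO-1LM libraries, with a log2 fold change of 0.64 and an adjusted p of 0.303 in edgeR. EPCAM, a defining epithelial marker, had 3 and 12 counts in FLO-1LM and 4 and 3 in parental cells, and was nearly absent from both lines. Of 19 matched markers of immune, stromal, endothelial and liver cells, 6 had no count. Of the 19, 17 were at or below 1 CPM in every library, and the highest, COL1A1, reached 12.7 CPM. NCAM1, listed as an immune marker, had 1.84 and 1.90 CPM in FLO-1LM and 3.04 and 2.35 CPM in parental cells. Summed, the 19 markers were at 16.2 and 14.3 CPM in FLO-1LM and 16.5 and 13.4 CPM in parental cells. The sums of the lines overlapped. Mitochondrial genes took 9.57% to 9.96% of counts in FLO-1LM and 7.93% to 8.31% in parental cells, and without these genes 0 of the 9 ligands were called.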

How the data were processed

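RNAseq was compared between 2 FLO-1LM and 2 FLO-1 parental libraries, grouped by the cell line named per the labels. The deposited values are raw read counts per Ensembl gene (GRCh37), made by the authors from directional libraries after bcl2fastq 2.17 and Trimmomatic 0.30, per the submitters' processing notes. How reads were counted (program, strand setting, reads with several matches) is not given in the sources used here. Total counts ran from 19060310 to 25920336, and 1.67% of counts lay on the 20046 identifiers without a name.

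In R 4.3.3 with edgeR 4.0.16, genes were filtered by filterByExpr (17143 kept), scaled by TMM and tested by glmQLFit and glmQLFTest with Benjamini-Hochberg adjustment over all of them (threshold 0.05). The 95% intervals use a standard error equal to the absolute log2 fold change over the square root of F. The scripts were tested on simulated data with known changes, each larger than any ligand estimate. That test does not cover differences as small as those of the ligands. Alternatives used limma voom 3.58.1, DESeq2 1.42.0, other scaling and filters, and each library left out. Positions and lengths come from a GENCODE annotation lifted to GRCh37, and promoters from RefSeq, with 9 of 10 genes matched. Promoter windows were aligned in pairs over their full length with Biopython 1.88 in Python 3.11.15.

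The 10 genes and the lists were chosen with earlier results of these data known. Named were the 10 genes, and from each wider list every gene past the threshold or otherwise the 3 with the highest mean CPM. A gene that this rule names is not reported here.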

Additional observations from a re-analysis of the deposited data

How the results depend on the processing

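Of 99 values of the 9 ligands under 11 alternatives, 91 kept their direction and stayed short of the threshold, 1 passed it, and 7, all of ligands with estimates near 0, changed sign without passing. With library totals only, CD276 was −0.022, ADAM10 −0.014 and CASP8 −0.030, and CASP8 was −0.0083 with limma voom, −0.0048 with at least 10 counts in every library and −0.00030 without mitochondrial genes. Leaving out each library in turn gave −0.070 to 0.086 for CD276, −0.012 to 0.089 for MICA, −0.14 to 0.068 for ULBP3, −0.0084 to 0.077 for PVRL2, −0.12 to 0.21 for ULBP1, −0.048 to 0.40 for ICOSLG, −0.042 to 0.019 for C10orf54, −0.17 to 0.083 for CADM1, −0.078 to 0.010 for BAG6, −0.083 to 0.14 for CD70, −0.037 to 0.075 for ADAM10, −0.039 to 0.010 for JAK1, −0.18 to 0.078 for TNFRSF10B, −0.10 to 0.10 for CASP8, −0.089 to 0.050 for ATM, −0.15 to 0.075 for ATR and −0.054 to 0.42 for SIRPA. The number of ligands called was 0 to 1 when a library was left out, the 1 being PVR without FLO-1LM replicate 1. In the wider lists 1 gene was called with library totals only, 1 without a low count filter, and 0 to 2 with a library left out. Among the neighbours 1 gene was called with library totals only and 0 to 5 with a library left out. Over all genes the count rose from 382 to 577 without a low count filter, for a reason that was not tested. It ran from 116 to 1052 with a library left out: 1052 and 967 without FLO-1LM replicate 1 and 2, and 116 and 139 without parental replicate 1 and 2. In each of these fits the lone library is assumed to vary like the other line. Between the 2 libraries of a line, a chi-square over genes per degree of freedom was 9.6 for FLO-1LM and 4.55 for parental cells. The cause of the spread in the number called was not tested. With the longest transcript as gene length 6 of 10 ligands kept their place in the order of levels. Library totals alone moved the median of all genes by −0.03 (log2). No paired analysis was possible because nothing in the labels ties a library of one line to a library of the other, and the replicate numbers 1 and 2 used here only name the libraries in the order they are listed. With 2 libraries per line, low counts limit CD274, ULBP2 and ULBP3 most.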
